A study of Mus musculus with 16 samples.

Results

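The regions described here carried H3K27ac, acetylation of lysine 27 of histone H3, in regenerating mouse liver, and overlapped no called region of H3K4me2, dimethylation of lysine 4 of the same histone. H3K27ac regions of at least 1000 bp on chromosomes 1 to 19 were taken from the lists of both genotypes and merged where they overlapped, which gave 35218 regions. Of these, 3461 (9.83%, 95% interval 9.52 to 10.1) shared no base with an H3K4me2 region of either genotype. They were thus chosen by the deposited peak calls of both marks, so that the calls themselves are a description and not a finding. They covered 5.59 Mb, which was 4.83% of the length of all 35218. The other 31757 regions overlapped H3K4me2 and serve as the comparison.

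The marks were mapped by chromatin immunoprecipitation and sequencing (ChIP-seq) 40 h after partial hepatectomy, the removal of most of the liver, in mice of a mixed C57/B6 and 129 background at postnatal day 90. WT mice were Arid1a Fl/Fl, with the gene flanked by sites for the Cre recombinase. KO mice were Arid1a Fl/Fl; Alb-cre, in which the albumin promoter drives Cre in hepatocytes and other cells derived from hepatoblasts, so that Arid1a is kept in other liver cells. Arid1a belongs to SWI/SNF, a complex that moves nucleosomes, and helps it bind DNA. Each mark had 1 library per genotype, E2f4 had 2, and 8 input samples were not used here. The frozen tissue was fixed and hepatocytes were isolated, per the labels.

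H3K27ac is placed by the acetyltransferases p300 and CBP and marks active enhancers and promoters. H3K4me2 lies over promoters and over enhancers whether active or poised, so that active elements in a tissue usually carry both marks. H3K27ac can also spread as broad domains through the bodies of highly active genes. In bulk chromatin a called region is a summary over many cells, so that fewer cells with a mark and less mark per cell cannot be told apart.

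Few regions without H3K4me2 held an annotated start of transcription, and the protein-coding starts they held were poor in CpG. The 250 bases before the start of 4 protein-coding genes inside such regions are printed to show this, with those of Arid1a, whose start carried both marks in both genotypes, for contrast. The bases are those of the RefSeq promoter table for mm10 (GRCm38.p6), read on the strand of the gene, and capitals mark CpG. Cdkn1a (chr17:29090729-29090978, plus strand) encodes p21, an inhibitor of the cyclin-dependent kinases. Aldh1a1 (chr19:20492333-20492582, plus strand) encodes an enzyme that makes retinoic acid. Cyp2c39 (chr19:39347096-39347345, plus strand) encodes a cytochrome P450, and Nat8f5 (chr6:85820973-85821222, minus strand) belongs to a family of N-acetyltransferases. The Arid1a window is chr4:133756770-133757019 on the minus strand.
Cdkn1a: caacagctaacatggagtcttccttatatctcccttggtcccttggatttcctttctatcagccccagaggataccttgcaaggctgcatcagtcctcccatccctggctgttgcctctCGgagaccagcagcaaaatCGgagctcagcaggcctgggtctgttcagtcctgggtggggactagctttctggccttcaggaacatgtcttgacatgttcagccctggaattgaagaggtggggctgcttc
Aldh1a1: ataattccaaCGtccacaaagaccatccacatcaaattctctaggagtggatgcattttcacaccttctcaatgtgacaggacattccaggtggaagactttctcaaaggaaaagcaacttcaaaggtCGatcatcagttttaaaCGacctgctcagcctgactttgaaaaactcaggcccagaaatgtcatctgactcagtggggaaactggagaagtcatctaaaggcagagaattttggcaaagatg
Cyp2c39: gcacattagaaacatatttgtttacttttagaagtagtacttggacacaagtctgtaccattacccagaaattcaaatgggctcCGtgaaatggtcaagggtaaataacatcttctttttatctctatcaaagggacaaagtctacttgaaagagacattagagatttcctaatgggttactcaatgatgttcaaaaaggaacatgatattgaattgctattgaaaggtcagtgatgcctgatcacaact
Nat8f5: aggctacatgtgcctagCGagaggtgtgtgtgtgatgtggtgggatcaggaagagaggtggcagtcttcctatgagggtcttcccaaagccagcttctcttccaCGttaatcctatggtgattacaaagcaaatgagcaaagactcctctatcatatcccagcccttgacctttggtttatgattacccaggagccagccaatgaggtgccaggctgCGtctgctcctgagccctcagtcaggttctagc
Arid1a: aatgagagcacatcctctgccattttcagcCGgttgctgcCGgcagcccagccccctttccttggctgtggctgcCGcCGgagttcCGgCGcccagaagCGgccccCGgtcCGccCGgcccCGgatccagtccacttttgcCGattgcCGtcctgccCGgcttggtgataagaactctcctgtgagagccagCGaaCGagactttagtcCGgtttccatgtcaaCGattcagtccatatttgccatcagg
The windows of Cdkn1a, Aldh1a1, Cyp2c39 and Nat8f5 held 2, 3, 1 and 3 CpG, against 18 in that of Arid1a. These 5 genes were chosen after their values were seen.

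Before any comparison of genotypes, the H3K27ac library labelled WT stood apart from the other 3 histone libraries at genes that differ between the sexes. At Xist, the RNA gene of the inactive X chromosome, H3K27ac covered 0 bp in WT and 2174 bp in KO, whereas H3K4me2 covered 9710 bp in WT and 9321 bp in KO. The H3K27ac list of WT held 10 peaks on the Y chromosome, against 2 in that of KO and 1 and 2 in the H3K4me2 lists of WT and KO. Of 20 genes known for higher expression in female liver, 15 had more H3K27ac in KO and 2 had more in WT. None was present in WT for 9 of them that were marked in KO, against 466 of all 20661 protein-coding genes. H3K4me2 over the same 20 genes was longer in WT for 13 and in KO for 6. Of 19 genes known for higher expression in male liver, 13 had more H3K27ac in WT and 2 had more in KO, while over all 20661 protein-coding genes 7140 had more in WT and 6355 more in KO. H3K4me2 was longer in WT for 11 of the 19 and in KO for 4. Over all 20661 genes H3K4me2 was longer in WT for 6085 and in KO for 9307, so that both lists leaned to WT against this background. The female and male lists were written after values had been seen, and the labels used here give no sex. With 1 library per genotype, a difference in H3K27ac between the genotypes cannot be told apart from a difference between these animals, and each genotype comparison here rests on that pair. Position, which does not need the pair, is also given for the list of each genotype alone.

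**Figure D1:**
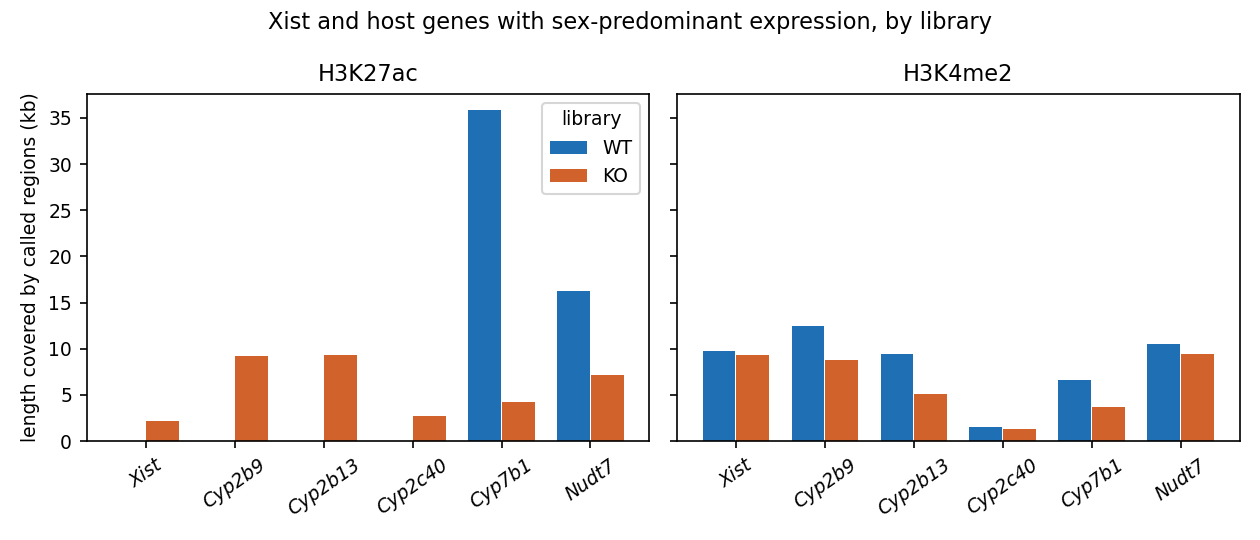
Length covered by called regions, in kb, over Xist and over 5 genes with sex-predominant expression that held a region without H3K4me2, in the H3K27ac (left) and H3K4me2 (right) libraries, with 1 bar for each library. H3K27ac was absent from Xist, Cyp2b9, Cyp2b13 and Cyp2c40 in the WT library, while the H3K4me2 library of WT covered all 4.

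The regions were narrow and weak beside the rest. Their median width was 1365 bp (quartiles 1153 and 1796), against 2355 bp for regions with H3K4me2, and 166 of them (4.80%) against 36.9% were wider than 3000 bp. The authors' fold enrichment, a value of each peak within its own list, had a median of 3.37 for the 2394 WT peaks in these regions and 4.75 for the other WT peaks of this width. In KO the medians were 3.14 for 1625 peaks and 4.76. Among peaks of 1000 to 1999 bp the medians were 3.32 against 4.03 in WT and 3.12 against 3.85 in KO, so that the lower fold was also present at matched width. A −log10 q-value of at least 5 was reached by 97 WT peaks (4.05%) and 9 KO peaks (0.554%) in these regions, against 53.2% and 52.0% of the other peaks.

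The choice of regions has 2 edges, and the values on both sides of them are given as a description. The share of merged regions without H3K4me2 fell with width, from 51.1% at 500 to 749 bp and 35.2% at 750 to 999 bp, just outside the width limit, to 25.8% at 1000 to 1249 bp and 19.01% at 1250 to 1499 bp, just inside it. At the overlap limit, regions in Dido1 (1166 bp), Mcph1 (1418 bp) and Arhgap42 (1110 bp) touched an H3K4me2 region without sharing a base. A region on chromosome 9 and those in Slamf7 and Maml1 were left out for overlaps of 2, 5 and 5 bp. By chromosome, the share of H3K27ac regions without H3K4me2 ran from 8.21% on chromosome 4 to 11.0% on chromosome 2.

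By genotype, most of the regions came from the list of 1 genotype, and more often from WT. Of the 3461, 1843 (53.3%, 51.6 to 54.9) held a peak of at least 1000 bp in WT only, 1075 (31.1%, 29.5 to 32.6) in KO only and 543 (15.7%, 14.5 to 16.9) in both. Over all 35218 H3K27ac regions the same classes made up 23.5%, 14.1% and 62.4%. The WT list was the longer one, with 31864 peaks of this width on chromosomes 1 to 19 against 28230 in KO. There is no replicate of either library, so the split has no test, and the intervals cover counting of regions only.

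Many regions of 1 genotype had a narrower peak in the other list. A narrower KO peak lay in 728 (39.5%) of the WT-only regions, covering a median of 29.8% of the region, and a narrower WT peak lay in 537 (49.95%) of the KO-only regions, covering 33.6%. With peaks of any width counted, 1115 regions (32.2%) remained without H3K27ac in KO and 538 (15.5%) without it in WT, against 10.1% and 4.01% of all H3K27ac regions, and 1808 (52.2%) had H3K27ac in both. When the lists were merged before the width limit was applied, 30.1% of regions were WT only and 55.4% were in both lists.

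At each width the regions were shared between the genotypes less often than regions with H3K4me2. At 1000 to 1249 bp, 1.61% of 1303 regions were in both lists, against 8.39% of those with H3K4me2. At 1500 to 1999 bp the shares were 20.2% of 726 and 56.9%. At 2000 to 2999 bp they were 44.2% of 502 and 78.1%, and from 3000 bp upward 57.5% of 167 and 95.2%. In all 5 width classes the 95% intervals of both shares were apart.

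**Figure D2:**
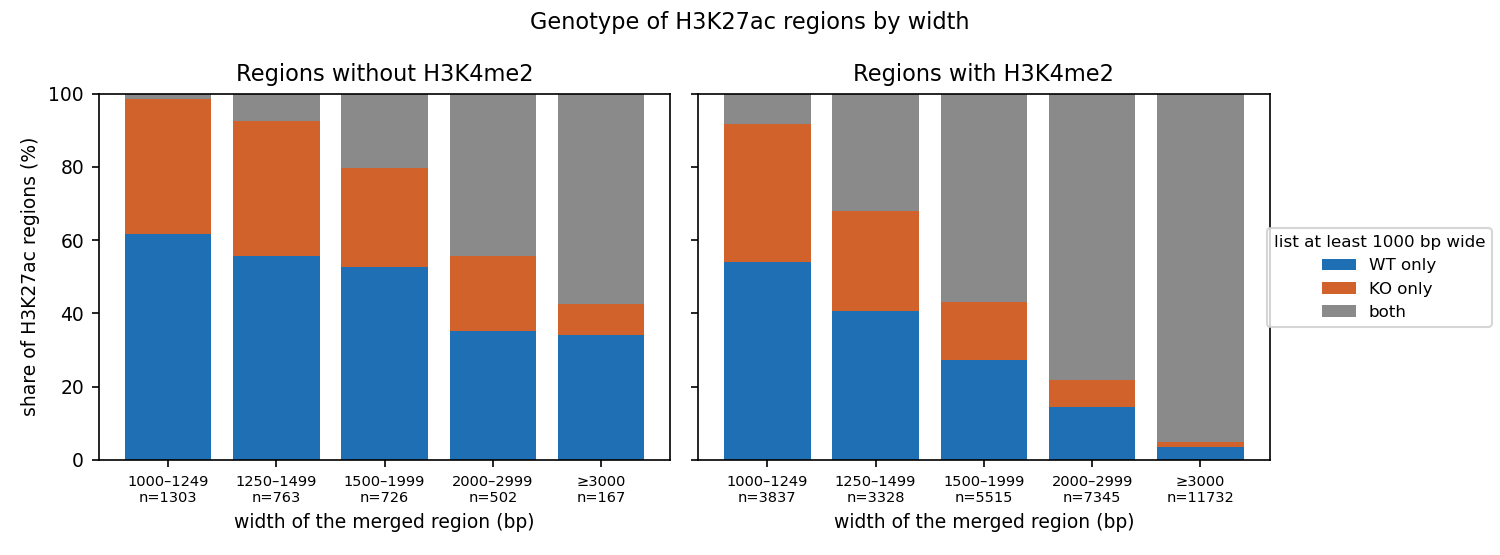
Share of H3K27ac regions, in percent, whose peak of at least 1000 bp was in the WT list only, the KO list only or both, by width of the merged region in bp, for regions without (left) and with (right) H3K4me2. The share in both lists rose with width on both sides and was lower without H3K4me2 in every class, 57.5% against 95.2% from 3000 bp upward.

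In position, the regions lay farther from the start within genes than other H3K27ac regions. The order of the genic shares varied with distance from starts, width and genotype class. Of the 3461, 2446 (70.7%, 69.1 to 72.2) overlapped a protein-coding gene, against 74.8% (74.3 to 75.2) of regions with H3K4me2 and 74.4% of all H3K27ac regions. Of them, 1929 had a host gene with a strand and a midpoint inside it, at a median of 59.1% of the way from gene start to gene end. For the 17537 such regions with H3K4me2 the median was 26.2%, and for 2166 such H3K4me2 regions without H3K27ac it was 23.1%.

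Along the gene, the share of regions rose from start to end over all hosts. With the gene cut into 5 equal bins, the first 20% of the gene held 229 (11.9%, 10.5 to 13.4), the next 3 bins 19.2%, 19.9% and 23.4%, and the last 20% held 495 (25.7%, 23.7 to 27.7). Regions with H3K4me2 ran the other way, from 43.9% (43.1 to 44.6) in the first 20% to 10.5% (10.01 to 10.9) in the last. The order was the same in both libraries, since the WT list alone put 12.3% in the first bin and 25.8% in the last, and the KO list alone 10.5% and 25.8%. It did not hold when H3K4me2 was limited to −log10 q-values of at least 5, which left 17071 regions without it, 18.6% of those with a position in the first 20% and 17.8% in the last. By genotype class, 70.3% (68.2 to 72.4) of WT-only, 72.6% (69.8 to 75.2) of KO-only and 68.1% (64.0 to 72.04) of shared regions were in a protein-coding gene. The median position was 58.2% for WT-only, 60.1% for KO-only and 63.2% for shared regions.

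**Figure D3:**
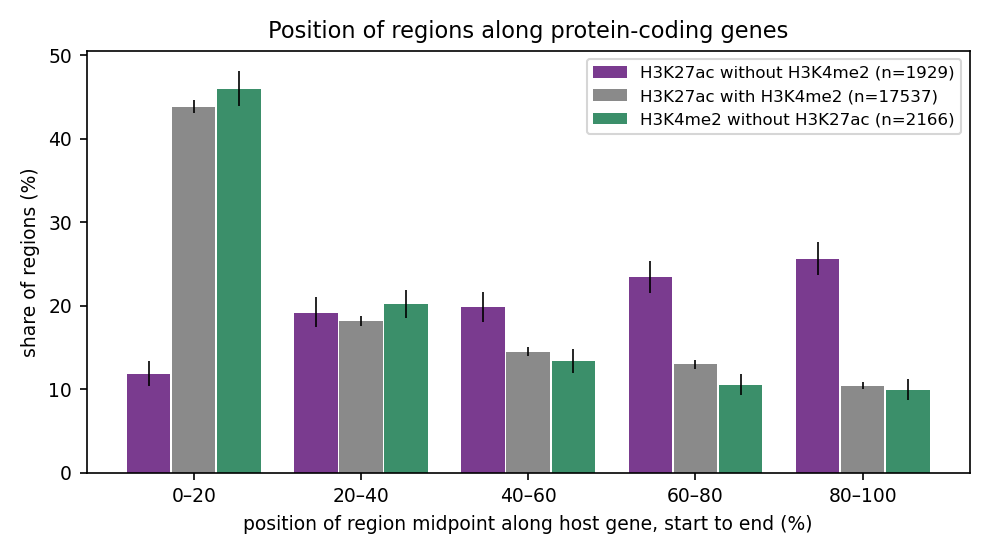
Share of regions, in percent, whose midpoint lay in each 20% of the host gene from its start to its end, for H3K27ac regions without H3K4me2 (n = 1929), H3K27ac regions with H3K4me2 (n = 17537) and H3K4me2 regions without H3K27ac (n = 2166), with 95% exact intervals over regions. The first group rises from 11.9% to 25.7% while the second falls from 43.9% to 10.5%.

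H3K4me2 itself marks starts of genes, so position was compared again away from starts. Among regions more than 5000 bp from any annotated start, the median position was 60.1% without and 46.7% with H3K4me2, and the last 20% of the gene held 25.9% and 16.2%. There the genic share was 71.8% (70.1 to 73.4) without and 68.2% (67.5 to 68.8) with H3K4me2, the reverse of the order over all regions. At any distance from starts, the genic share was also higher without H3K4me2 at 1000 to 1249 bp, 72.6% against 66.8%, and at 1250 to 1499 bp, 68.8% against 67.9%. The same held in WT-only regions, 70.3% against 66.4%, and KO-only regions, 72.6% against 69.3%. It was lower without H3K4me2 in shared regions, 68.1% against 78.3%, and at 1500 to 1999 bp, 67.9% against 71.6%. At 2000 to 2999 bp it was 72.1% against 73.8%, and from 3000 bp upward 71.9% against 81.4%. Beyond 10000 bp the medians were 61.8% and 50.3%, and the genic shares 72.2% and 68.4%. These 2 distances were chosen after the data were seen. In each of the 5 classes of gene length the median position was higher without H3K4me2. In genes under 20000 bp it was 70.2% without and 12.9% with H3K4me2, from 20000 to 50000 bp 63.2% and 19.8%, and from 50000 to 100000 bp 60.4% and 28.0%. From 100000 to 200000 bp it was 48.7% and 33.9%, and above 200000 bp 57.0% and 43.4%. The rise along the gene was not present from 100000 to 200000 bp, where the 5 bins held 16.6%, 23.1%, 20.3%, 20.6% and 19.4%.

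Annotated starts were rare in the regions. Chromosome 18 has no starts in the table used, which leaves 3364 regions, with a median distance of 23718 bp from midpoint to nearest start, against 11349 bp for regions with H3K4me2. Of these, 44 (1.31%, 0.952 to 1.75) held a start, against 29.1% of regions with H3K4me2 and 26.3% of all. Outside genes and chromosome 18 lay 987 regions, of which 103 (10.4%, 8.60 to 12.5) were within 5000 bp past a gene's 3′ end, against 6.91% (6.36 to 7.50) of regions with H3K4me2. Within 5000 bp of a gene's 5′ end lay 66 (6.69%), against 5.75% of regions with H3K4me2. Both ends are those of genes with a strand.

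Most regions were close to H3K4me2 without touching it. The gap to the nearest H3K4me2 region had a median of 3251 bp (quartiles 1478 and 7786), and 568 regions (16.4%) had a gap of at most 1000 bp, 2177 (62.9%) of at most 5000 bp and 2806 (81.1%) of at most 10000 bp. The medians were 3284 bp for WT-only, 2987 bp for KO-only and 3672 bp for shared regions. H3K4me2 lay within 5000 bp on both sides of 758 regions (21.9%).

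**Figure D4:**
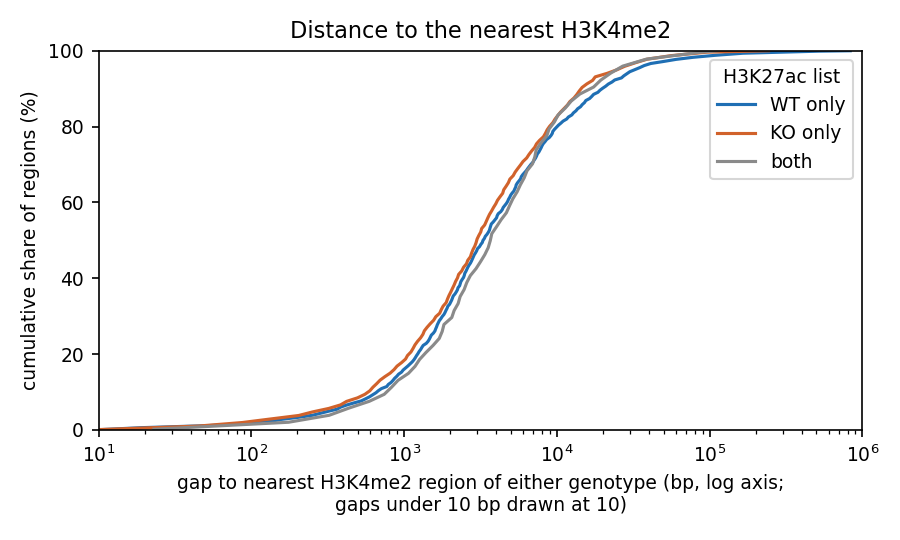
Cumulative share of regions, in percent, by the gap in bp on a log axis to the nearest H3K4me2 region, with 1 line for each genotype class of the H3K27ac list. The 3 lines run close together, with medians of 3284, 2987 and 3672 bp.

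A small set stood far from any H3K4me2. Only 76 regions had a gap above 50000 bp, and 18 of these (23.7%, 14.7 to 34.8) were in a protein-coding gene, against 71.7% of the other 3385. WT-only regions made up 52 (68.4%, 56.7 to 78.6) of them. The widest of all 3461 regions was among them, 12908 bp at chr17:81374235-81387142 in Slc8a1, which encodes a sodium-calcium exchanger. It lay at 97.9% of the gene, all of it was one WT peak with a fold of 6.09, KO had no H3K27ac in it, and the nearest H3K4me2 was 93135 bp away. Outside genes, chr4:70662512-70669597 had 7086 bp in WT (fold 5.86) and 682 bp in KO (2.96), and chr2:149611854-149614541 had 2688 bp in WT (7.01) and none in KO, with H3K4me2 519811 bp away.

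Of the other widest regions, those on chromosome 19 and in Cxcl12 were in both lists. In no protein-coding gene, chr19:21881183-21893710 spanned 12528 bp, with 11535 bp in WT (fold 5.85) and 12528 bp in KO (4.89). Near it, chr19:21849316-21858260 in Cemip2, which encodes a cell-surface hyaluronidase, had 8791 bp in WT (3.85) and 6724 bp in KO (3.40). At 82.8% of Cxcl12, the gene of a chemokine that attracts leukocytes, a region of 8227 bp had 8227 bp in WT and 3116 bp in KO, 178 bp from H3K4me2. Among peaks in these regions, the highest WT fold was 9.66, at chr8:46374147-46377419, where KO had 2.73. The highest KO fold was 5.88, at chr17:74076890-74080602, where WT had 5.26. Within genes, the highest folds in these regions were 7.02 in Cpne5 for WT, with no KO peak, and 5.34 in Armc9 and 5.31 in Aopep for KO, where WT had 3.06 and 6.01. The region chr4:130784707-130790999, in no protein-coding gene, had 5516 bp in WT and 5070 bp in KO. The fold values of WT and KO come from separate lists and show no change between them.

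Strong regions were nearly all WT only when weaker peaks were left out. With H3K27ac peaks limited to a −log10 q-value of at least 5, 108 regions had no H3K4me2, of which 98 were WT only, 8 KO only and 2 in both lists. WT only here means that no KO peak of at least 1000 bp reached this limit, and weaker KO peaks could lie in the region. Under the same limit, 21.5% of all 17408 H3K27ac regions were WT only, 11.9% KO only and 66.6% in both. Of the 98, 45 had no KO peak of any strength or width. In some of the others KO H3K27ac covered most of the region, 3666 of 4069 bp in Sash1 and 5494 of 5849 bp at chr8:115581534-115587382. All 108 regions together had 48 protein-coding host genes, 3 of which (Scara5, Dock1 and Hpse2) held more than 1. The widest KO-only one was 6589 bp in Proz, the gene of the plasma protein Z, where WT had 2935 bp. Of the 108, 47.2% were in protein-coding genes. The H3K27ac library labelled WT is the one that stood apart at sex-linked genes, and the part of this in the 98 regions was not tested.

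Host genes numbered 1706 of 20661 protein-coding genes (8.26%), or 12.3% of the 13835 with H3K27ac in the body. They held 1 region in 1250 cases, 2 in 274 and 3 or more in 182, up to 10. They were long, with a median body of 63846 bp against 21303 bp for other genes with H3K27ac. An annotated start was known for 1377 hosts and 9696 of the other genes. Both marks lay within 1000 bp of the start for 89.8% of these hosts (88.0 to 91.3) and 89.0% of these other genes (88.4 to 89.6). The intervals of the 2 shares overlap. H3K27ac covered a median of 19.6% of the host gene in WT and 16.7% in KO, against 10.19% and 9.64% in the other genes. The shares of gene lists given below were not matched for gene length or H3K27ac cover. Among the hosts, 1089 had more H3K27ac in WT and 617 more in KO, 26 had none in KO and 12 none in WT. Over all 13835 genes with H3K27ac in the body 51.6% had more in WT and 45.9% more in KO, and 509 had none in KO and 466 none in WT. Since hosts were chosen through regions that were mostly WT only, nothing is read from their lean to WT. Regions were WT only in 772 hosts (45.3%) and KO only in 477 (28.0%).

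Scara5, named by length and WT-only length, encodes a scavenger receptor that takes up ferritin and had H3K27ac over its body in the WT library alone. Since it was chosen through WT-only length, nothing is read from its lean to WT. Over its 98424 bp (chr14:65666403-65764826), H3K27ac covered 53456 bp in WT and 0 bp in KO, while H3K4me2 covered 5655 bp in WT and 528 bp in KO. Its 7 regions without H3K4me2 came to 17823 bp, all WT only, with folds of 3.003 to 5.08. The 100 kb before the gene were marked in both genotypes, with 10842 bp of H3K27ac in WT and 5194 bp in KO.

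Acsl1, Scp2 and Ppara, named by length, WT-only length and the transcription factor list, had more H3K27ac in WT. Acsl1 and Scp2 were among the hosts chosen through WT-only length, so nothing is read from their lean to WT. Acsl1, which activates long-chain fatty acids, had 4 regions (3 WT only, 1 in both) of 14345 bp in all, and its H3K27ac covered 52831 bp in WT and 36762 bp in KO. Its regions lay between 54.3% and 97.5% of the gene, past the H3K4me2 that covered its first part. Scp2, a sterol carrier, had 4 WT-only regions of 8497 bp, with 81475 bp of H3K27ac in WT and 59322 bp in KO. Ppara, the fatty acid sensing nuclear receptor, had 61616 bp of H3K27ac in WT and 48057 bp in KO, with 3 regions in both lists, at 79.5%, 94.9% and just past the end of the gene.

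Fn1, Cp, Osbpl8 and Nav2, named by KO-only length, had more H3K27ac in KO. Since they were chosen through KO-only regions, nothing is read from their lean to KO. Fn1, the gene of fibronectin, had 27620 bp in WT and 46716 bp in KO, with 4 KO-only regions and 1 WT-only region of 10603 bp in all. Cp, the gene of the copper carrier ceruloplasmin, had 21762 bp in WT and 30583 bp in KO, with 3 KO-only regions and 2 shared. Its 5 regions followed each other between 49.0% and 76.3% of the gene. Osbpl8, which encodes a lipid transfer protein, had 19784 bp in WT and 32770 bp in KO, and its 4 regions were KO only. Nav2 also had 4 KO-only regions, with 53784 bp of H3K27ac in WT and 72565 bp in KO.

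**Figure D5:**
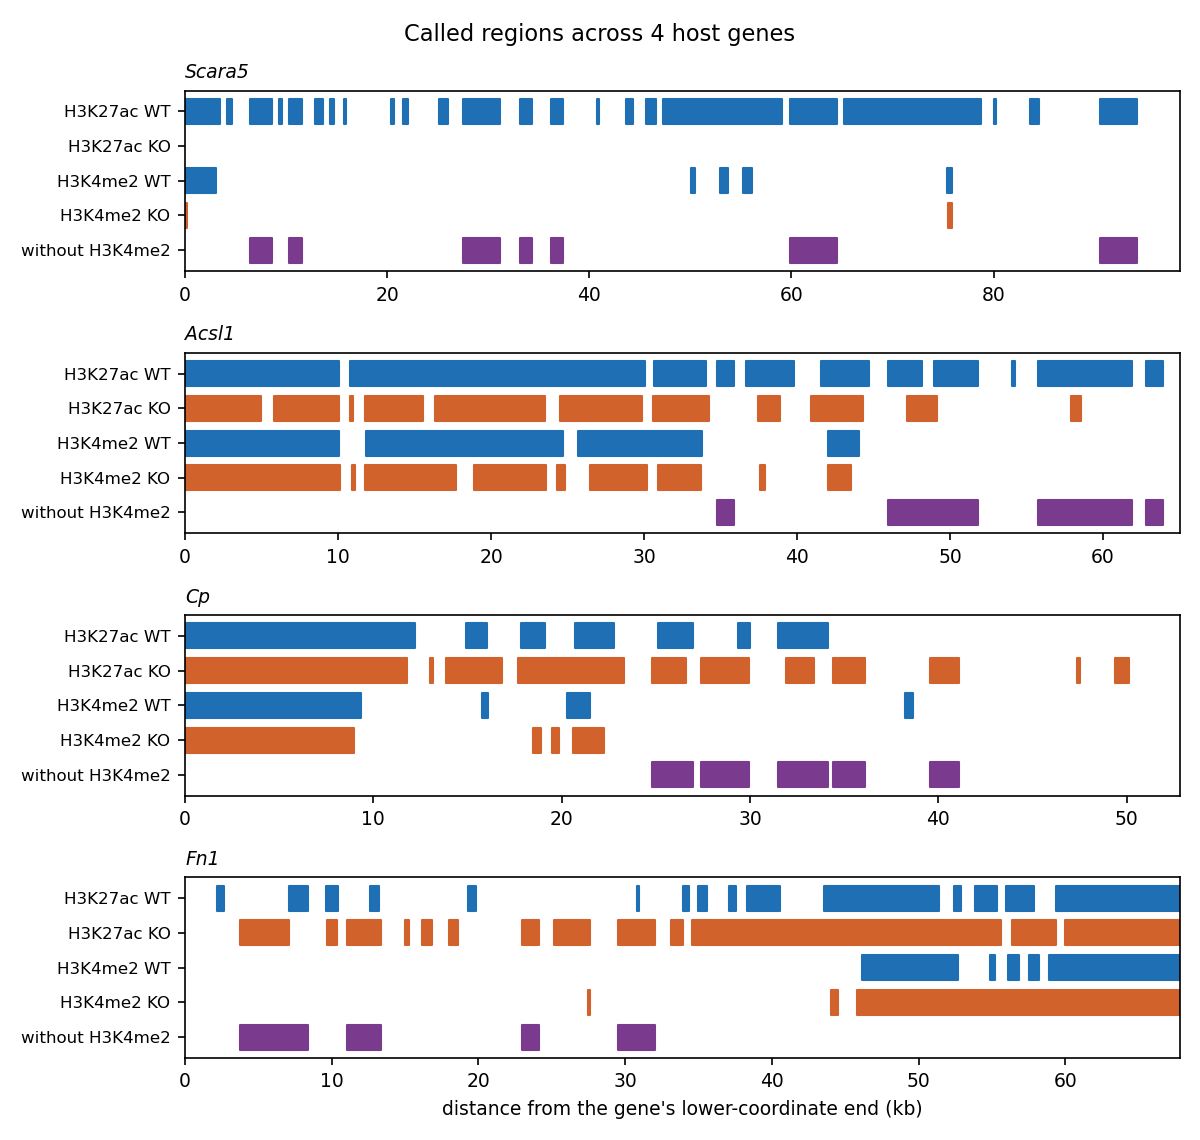
Called H3K27ac and H3K4me2 regions of each genotype across the bodies of Scara5, Acsl1, Cp and Fn1, in kb from the gene end with the lower coordinate, with the H3K27ac regions without H3K4me2 in the bottom row. Scara5 has no KO H3K27ac, and in Cp and Acsl1 the regions without H3K4me2 lie away from the marked gene start on the left.

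Other hosts with much length in these regions were marked in both genotypes. Ttc39c and Nup98 were chosen through WT-only length and Nedd4l through KO-only length, so nothing is read from their lean. Ttc39c had 10 regions (7 WT only, 3 in both) of 21840 bp, with 71352 bp of H3K27ac in WT and 44107 bp in KO. Rbms3, an RNA-binding protein gene, had 10 regions of 16736 bp, and Cemip2 had 5 of 15431 bp, 4 of them in both lists. Iqgap2, a scaffold protein gene, and Vps13d, a lipid transfer protein gene, had 7 each, of 14754 and 14513 bp. Zbtb16, a transcription factor gene, had 7 of 12178 bp, and Ghr, the growth hormone receptor gene, had 9 (6 WT only, 3 KO only) of 12169 bp. Nup98, a nuclear pore gene, had 3 WT-only regions of 8773 bp, and Nedd4l, a ubiquitin ligase gene, had 6, of which 4 were KO only.

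Among liver genes, a region was present in 16 of 44 genes of hepatic metabolism and in 8 of 22 hepatocyte transcription factors, against 12.3% of genes with H3K27ac in the body. H3K27ac in WT covered a median of 55.3% and 77.3% of the bodies of these 2 lists, and cover was not matched. In metabolism the 30 regions were 15 WT only, 9 KO only and 6 shared. Hgd, an enzyme of tyrosine breakdown, had 5 regions (4 WT only, 1 in both), with 21675 bp of H3K27ac in WT and 14798 bp in KO. Slco1b2, a bile acid and drug uptake transporter, had 2 WT-only and 4 KO-only regions, and Aldh1l1, of folate metabolism, had 2 and 1. Of the transcription factors, Prox1 had 2 WT-only regions, Nr1h4, the bile acid receptor, had 1 WT-only and 2 KO-only, and Hnf4a had 1 KO-only region of 1056 bp in which WT had 548 bp.

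Of 30 secreted protein genes, 6 (20%) held a region, against 12.3% of all genes with H3K27ac in the body. Their 12 regions were 1 WT only, 7 KO only and 4 shared, against 53.3%, 31.1% and 15.7% of all 3461, and Cp and Plg alone held 5 of the 7. Besides Cp, Plg, the gene of plasminogen, had 1 WT-only and 2 KO-only, and Itih4 had 1 shared. C8a, which encodes a chain of complement component C8, had 1 KO-only region, with 41337 bp of H3K27ac in WT and 30927 bp in KO. Genes of the secreted list had a median body of 10222 bp, of which H3K27ac covered a median of 79.96% in WT and 89.6% in KO. Alb, the albumin gene that marks hepatocytes, had 14357 bp of H3K27ac in WT and 14610 bp in KO over 15733 bp and held no region without H3K4me2. Of the other hepatocyte markers, Apoa1, Ttr, Serpina1a and Fgb held none either. Apob, Cps1 (4 regions) and Hnf4a (1 region) were hosts.

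Of genes tied to proliferation, few in each list held a region, beside 12.3% of all genes with H3K27ac in the body. The counts are small, and nothing is read from their distance to that share. Of 35 cell cycle and replication genes (5.71%), Cdk1 had 1 WT-only and Cdkn1a 1 KO-only region. Of 27 genes of regeneration signalling, 5 (18.5%) held 8 regions, 6 WT only and 2 KO only. Egfr, the epidermal growth factor receptor gene, had 3 WT-only and 1 KO-only region of 7057 bp in all, and the interleukin-6 receptor genes Il6ra and Il6st had 1 WT-only region each. Of 18 SWI/SNF genes, Arid1b, Pbrm1, Smarca2 and Smarcc2 (22.2%) held 6 regions, all WT only, against 53.3% WT only over all 3461. Arid1a held none, with 20007 bp of H3K27ac in WT and 27916 bp in KO. These lengths do not check the deletion.

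Marker genes of other liver cells were also hosts. All 15 endothelial markers had H3K27ac in the body and 6 (40%) held 8 regions, against 12.3% of all genes with H3K27ac in the body. Their median body was 46246 bp, against 63846 bp for hosts and 21303 bp for other genes with H3K27ac, and length was not matched. The 8 regions were 6 WT only and 2 shared, against 53.3% and 15.7% of all 3461. Kdr, a receptor for vascular endothelial growth factor, had a shared region of 4592 bp at 87.3% of the gene, and Eng had one at 95.1%. Stab2, a scavenger receptor of liver sinusoids, had 3 WT-only regions, with 40602 bp of H3K27ac in WT and 20577 bp in KO. Of the macrophage markers, 2 of 14 (14.3%, Cd163 and Cx3cr1) held 1 WT-only region each, and of 15 stellate and fibroblast markers Dcn and Reln held 4. None of 18 lymphocyte and 13 cholangiocyte markers held one, and 11 and 5 of these had any H3K27ac in the body. H3K27ac over a median endothelial marker covered 24.3% of the body in WT and 18.3% in KO. The part of other cell types in the regions was not tested.

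Genes of cytochrome P450, the haem enzymes of drug and steroid metabolism, hosted 18 of the regions. They lay in 12 of 99 such genes, or 16% of the 75 with H3K27ac in the body against 12.3% of all genes with it. The 18 were 12 WT only, 5 KO only and 1 shared, beside 53.3%, 31.1% and 15.7% of all 3461. Cyp7b1, an oxysterol hydroxylase known for higher levels in males, had 3 WT-only regions, with 35849 bp of H3K27ac in WT and 4216 bp in KO against 6644 and 3748 bp of H3K4me2. Cyp2b9, Cyp2b13 and Cyp2c40, known for higher levels in females, had 1 KO-only region each. Over Cyp2b9, H3K27ac covered 0 bp in WT and 9261 bp in KO, while H3K4me2 covered 12505 bp and 8803 bp. Over Cyp2b13 the lengths were 0 and 9303 bp of H3K27ac, with 9436 and 5090 bp of H3K4me2. Of the lists of sex-predominant genes, 3 of 20 female and 3 of 19 male ones (C6, Cyp7b1 and Nudt7) held a region.

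The 44 regions that held a start held 51, of which 17 were of protein-coding genes and 34 of long non-coding RNAs. By class, 18 starts were in WT-only regions, 21 in KO-only and 12 in shared ones, against 53.3%, 31.1% and 15.7% of all 3461 regions. Some regions held more than 1 start, so these are counts of starts and not of regions. In the 250 bases before these starts the ratio of observed to expected CpG had a median of 0.199, against 0.725 for 12698 starts in regions with H3K4me2 and 0.379 for all 31396. Long non-coding RNAs made up most of the 51, and for their starts the median was 0.207 inside the regions and 0.241 over all 11311, a smaller gap than the 0.181 and 0.547 of protein-coding starts. Of the 17 protein-coding starts none had a ratio above 0.6 (upper limit 19.5%, exact), against 69.3% of those in regions with H3K4me2. The letters TATAAA, searched on both strands in the same window, were present before 4 of the 51 starts (7.84%), 6.51% of those with H3K4me2 and 12.4% of all.

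The printed genes show how such starts lay within a gene. Cdkn1a had a KO-only region of 1030 bp over its first start, where WT had no H3K27ac, and its later start, at chr17:29093769, carried both marks in both genotypes. Aldh1a1 had a region over its first start in both lists, 2039 bp in WT and 1308 bp in KO, and its later start was fully covered by both marks. Cyp2c39 had 1501 bp in WT and none in KO over its first start, 55212 bp from the nearest H3K4me2. Its later start, at chr19:39510822, was fully covered by both marks in both genotypes. Over the whole gene, H3K27ac covered 7168 bp in WT and 11590 bp in KO. Nat8f5, with 1 annotated start, had 1750 bp in WT and none in KO. Of the other protein-coding starts, those of Btla and Il18r1 were in KO-only regions with no WT peak, and those of Ccr1l1, Ms4a10 and Trim12a in regions of both lists.

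E2f4, a transcription factor that binds promoters of cell cycle genes, had few peaks in the regions. A peak lay in 2 of 3461 for WT replicate 1, 1 for WT replicate 2 and 0 for each KO replicate, which allows a share of up to 0.0867% (3 counts of the total, with an exact upper limit of 0.107%). The regions with H3K4me2 overlapped a peak in 4.05%, 2.76%, 0.636% and 1.84% of cases in the same order, and all H3K27ac regions in 3.66%, 2.49%, 0.574% and 1.66%. The mean was 1.5 ± 0.707 regions in WT and 0 in KO (SD, n = 2 each, exact permutation p = 0.333, two-sided, the smallest that 6 assignments allow). The 3 regions were chr10:4180864-4182833, a KO-only region in Nkd1 (chr8:88565559-88566704), which encodes an inhibitor of Wnt signalling, and the isolated WT-only region on chromosome 4. None of these peaks reached a −log10 q-value of 5.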

How the data were processed

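ChIP-seq peak lists of 8 libraries were used, 1 per genotype for each mark and 2 for E2f4, with groups and replicate numbers from the sample titles. Bowtie2 2.2.3, Picard, MACS2 2.0.10.20131216, HOMER and mm10 appear in the submitters' processing notes, with no role given. The deposited lists, 1 per library, give for each peak its position, a fold enrichment (a ratio), a −log10 q-value (at least 1.00 in the H3K27ac lists) and a −log10 p-value. The deposited score was not used, nor the −log10 p-values. The use of the inputs in peak calling is not given in these sources. Without counts the depth stays unknown, and a shallower or less enriched library yields fewer and narrower peaks. Nothing in the labels used here says whether the E2f4 replicates came from separate animals.

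Each H3K27ac peak was filtered on width (1000 bp), peaks of both genotypes were merged, and regions sharing 1 bp with an H3K4me2 peak of any width were removed. A region is WT only, KO only or both by which list gave a peak of that width. Gene bodies are the outer ends in an NCBI RefSeq table of GRCm38.p6, with no exons, so exon, intron and UTR were not analysed here. Strand and starts came from the RefSeq promoter table, which covers 16456 of 20661 protein-coding genes and has no start on chromosome 18. The design had assumed strand and a genome sequence for every gene, so positions use the genes with a strand and sequences of whole regions were not printed. Regions whose midpoint lay outside the host gene were left out of the median positions and the bins. Intervals of shares are exact Clopper-Pearson ones at 95% and cover the counting of regions only. E2f4 counts were compared by an exact permutation test. Python 3.11.15, numpy 2.4.6, pandas 2.3.3, scipy 1.17.1 and matplotlib 3.10.9 were used, and the interval functions were tested on simulated data. Named genes were the 10 hosts with the most length in these regions, the 6 with the most WT-only and the 6 with the most KO-only length, up to 3 per gene list, and Alb, Hnf4a and Arid1a. Named regions were the 5 widest, the 3 widest outside genes and the 3 of highest fold per list. The isolated regions, the P450 genes, the sex-predominant genes, hosts of strong regions and genes with starts were chosen after their values were seen. The result of the list of acute phase and complement genes is not reported here. The members and the 12 gene lists were chosen with earlier results of these data known. Alternatives were other widths, merging and overlap rules, stricter −log10 q-values, lists of equal length, H3K4me2 of the same genotype, other gene limits and each list alone.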

Additional observations from a re-analysis of the deposited data

How the results depend on the processing

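Of 92 alternative values, 49 stayed within their limits. The number of regions without H3K4me2 was 10858 from 500 bp, 601 from 2000 bp, 108 with H3K27ac −log10 q-values of at least 5, 17071 with H3K4me2 −log10 q-values of at least 5, 6401 with H3K4me2 of the same genotype only and 1849 from the KO list alone. The WT-only share was 49.7% from 500 bp, 58.2% from 2000 bp, 30.1% merged before the width limit, 90.7% and 39.0% with the stricter H3K27ac and H3K4me2 lists, 49.3% with lists of equal length and 60.5% with H3K4me2 of the same genotype. The share in both lists was 11.5% from 2000 bp, 55.4% merged first, 18.3% with an overlap under 10% allowed, 1.85% and 41.8% with the stricter lists and 9.81% with the same genotype. The genic share was 69.0% with gaps under 1000 bp merged, 47.2% and 68.4% with the stricter lists, 69.0% with the same genotype, 77.1% with all annotated genes, 76.5% with 5000 bp either side, 72.6% for KO-only and 68.1% for shared regions. The first 20% of the gene held 13.5% from 500 bp, 8.43% from 2000 bp, 10.3% with H3K4me2 kept 1000 bp away, 15% and 18.6% with the stricter lists, 9.90% for shared regions, 10.3% and 8.38% beyond 5000 and 10000 bp from a start, and 10.5% for the KO list. The last 20% held 23.1% from 500 bp, 28.0% from 2000 bp, 17.5% and 17.8% with the stricter lists, 23.1% with the same genotype and 29.0% for shared regions. With the stricter H3K4me2 lists the first 20% thus held more than the last, 18.6% against 17.8%. Of the E2f4 counts, the difference of WT minus KO was 0 at a −log10 q-value of 5, 1.0 to 2.0 with 1 library left out, and 1.5 with the replicate block (exact sign-flip permutation p = 0.5, the smallest for a pairing of 2). The distances from starts and the use of 1 list alone were chosen after the data were seen. Depth was unknown, and the position of a region near the calling threshold of either mark sets its membership.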
